A study of Mus musculus with 106 samples.

Results

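mRNA on the ribosomes of cerebellar granule cells was compared with that of the GABAergic neurons of the same tissue, in control mice. The comparison holds each control cerebellar RiboTag immunoprecipitation (IP) of the series, 5 libraries labelled vGluT2 and 6 labelled Gad2, which make up 11 of its 106 libraries. They were chosen by the labels for genotype, tissue, preparation and cell type, and by no measured value. Granule cells are small excitatory neurons whose parallel fibres release glutamate onto Purkinje cells, the inhibitory neurons that carry the output of the cerebellar cortex. Basket and stellate cells of the molecular layer inhibit Purkinje cells, and Golgi cells inhibit granule cells. These inhibitory neurons descend from the ventricular zone of the embryonic cerebellum, whereas granule cells, unipolar brush cells and the glutamatergic neurons of the cerebellar nuclei descend from the rhombic lip.

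The series profiles neurons of a Huntington's disease (HD) model and of its littermate controls before overt symptoms. In RiboTag mice, Cre recombinase switches the ribosomal protein gene Rpl22 to a form with an HA tag, and an antibody to the tag pulls ribosomes and their mRNA out of a tissue homogenate. The controls were Hdh Q7/Q7 mice and the HD mice Hdh Q7/Q200, all on the 129S4 strain and 9 months old. Each mouse carried 1 RiboTag allele and 1 Cre allele, Gad2-IRES-Cre at the gene of a GABA-synthesizing enzyme or vGluT2-IRES-Cre at Slc17a6, the gene of a vesicular glutamate transporter. Recombination is permanent, so a tagged cell need not transcribe its driver in the adult. The 2 cell types came from different mice of different lines, so in the IPs line and cell type cannot be told apart. Each IP came from the cerebellum of 1 brain hemisphere and pools its tagged cells, and fewer cells of a type and less RNA per cell cannot be told apart. Levels are CPM, counts scaled to a common library size with factors from the trimmed mean of M-values (TMM), and a log2 fold change is positive where vGluT2 IPs were higher.

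The 5 vGluT2 IPs held 34229866 to 40085606 counts on mouse genes (median 36498930) and the 6 Gad2 IPs 28961145 to 40661342 (median 35626924), so depth was similar in both groups. Rank correlations across genes, which are not independent replicates, were 0.979 to 0.993 between vGluT2 IPs, 0.966 to 0.994 between Gad2 IPs, and 0.888 to 0.926 between an IP of one group and one of the other. A pair of libraries stood apart in make-up. Gad2 replicate 5 had 77.4% of its counts on protein-coding genes, against a group median of 97.4%, and 21.7% on CT010467.1, a gene with ribosomal RNA sequence that held 0.966% to 4.0% in the other 10 libraries. It also had the fewest genes detected, 15289, against a group median of 20366. In vGluT2 replicate 5 the 20 granule cell genes described below summed to 15840 CPM, against 19421 to 21506 in the other 4 vGluT2 IPs, and Slc17a6, Sst and Lhx9 were at 106, 62.0 and 24.9 CPM. Summed CPM of Y-linked genes was 81.7, 70.6, 106, 0, 73.7 and 0 in Gad2 replicates 1 to 6 and 0, 0, 101, 0 and 0 in vGluT2 replicates 1 to 5. Mice with Y-linked mRNA were thus 4 of 6 and 1 of 5, so sex was unbalanced between the groups and in part goes with cell type.

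Gabra6, which marks mature granule cells, and Pcp2, which marks Purkinje cells, separated the groups in opposite directions. Gabra6 (ENSMUSG00000020428.13; GRCm38 chromosome 11, 42306437 to 42321072, minus strand) encodes the alpha6 subunit of the GABA-A receptor. Its CPM was 1254, 1437, 1124, 1312 and 989 in the vGluT2 IPs and 79.5 at the lowest, 130 at the median and 206 at the highest of the 6 Gad2 IPs. The lowest vGluT2 IP stood above the highest Gad2 IP, the means being 1223 ± 173 (SD, n = 5) and 135 ± 49.2 (n = 6), and the log2 fold change was 3.18 ± 0.23 (SE; adjusted p = 2.07e-08). Pcp2 (ENSMUSG00000004630.18; chromosome 8, 3623371 to 3625545, minus strand) encodes a small modulator of G protein signalling. It was at 17.2, 11.6, 27.5, 20.9 and 16.9 CPM in the vGluT2 IPs and at 985, 1310 and 1869 CPM (lowest, median, highest) in the Gad2 IPs. The groups were far apart, with means of 18.8 ± 5.86 and 1387 ± 402, a 73.8-fold difference and a log2 fold change of -6.20 ± 0.28 (adjusted p = 3.2e-10). Both labels thus matched their marker, while Gabra6 in the Gad2 IPs and Pcp2 in the vGluT2 IPs were low but above 0 in all 11 libraries.

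Most protein-coding genes tested differed between the groups. Of 13879 genes with a mean count over 10, 3977 were higher in vGluT2 IPs (28.7%) and 3821 higher in Gad2 IPs (27.5%) at an adjusted p of 0.05 or less. At 2-fold or more the 2 sides were unequal, with 1432 genes higher in vGluT2 (10.3%) and 2123 higher in Gad2 (15.3%). Beyond 8-fold, a log2 fold change of 3, there were 129 genes on the vGluT2 side and 484 on the Gad2 side, and beyond 16-fold 22 and 168. At a log2 fold change of 5 or more there were 8 on the vGluT2 side. These were below 10 CPM in the vGluT2 IPs or overlapped between the groups, as the largest fold among the others was 4.16. The median log2 fold change over all genes tested was 0.01 and the median absolute value 0.56. In 5374 genes (38.7%) the 5 vGluT2 and 6 Gad2 values did not overlap. DESeq2 called 4079 and 4086 genes, and a test against a 2-fold change, stricter than the fold limit used here, 766 and 1370. Ranges of adjusted p over alternatives, given below for unsteady calls, leave that test out, since genes of small fold are not called by it. Without Gad2 replicate 5 edgeR called 4150 and 3989 genes, and without replicate 5 of both groups 3865 and 4123.

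**Figure D1:**
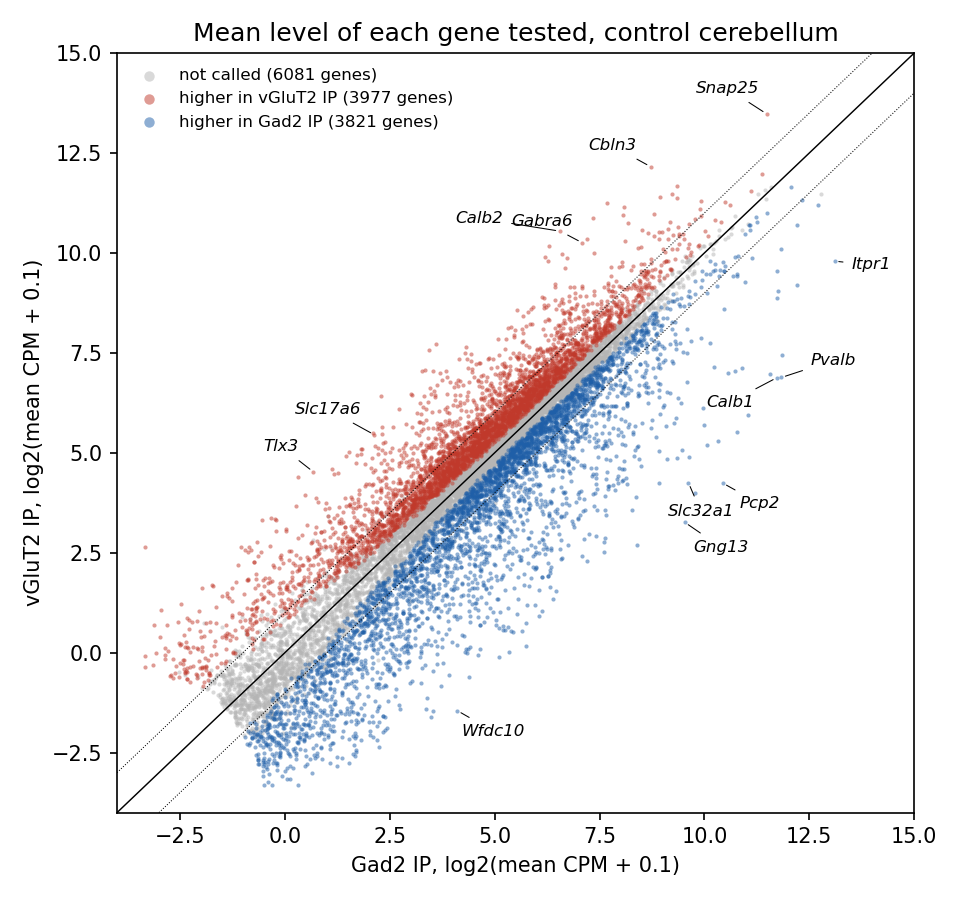
Mean level of each gene tested in control cerebellar IPs, as log2 of CPM + 0.1, in Gad2 (x axis, n = 6) against vGluT2 (y axis, n = 5), with colours for the 3977 genes higher in vGluT2, the 3821 higher in Gad2 and those not called, and dotted lines at 2-fold. The points far from the diagonal are denser on the Gad2 side, where 2123 genes passed 2-fold against 1432.

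Granule cell genes were higher in the vGluT2 IPs without exception in their list: 20 of 20 were called, against 28.7% of all genes tested, and each at least 2-fold, against 10.3% (median log2 fold change 2.66, range 1.43 to 3.99, against 0.01 over all genes tested). Members of this and the other lists were chosen with earlier results of these data known, so their counts describe the lists and test nothing. Cbln3, a secreted partner of Cbln1 made by granule cells, was at 5279, 4900, 4655, 4451 and 3552 CPM in the vGluT2 IPs and at 273 to 529 in the Gad2 IPs, a log2 fold change of 3.44 ± 0.17 (adjusted p = 4.64e-10). Neurod1, a basic helix-loop-helix factor needed for granule cell survival, had 966, 1090, 1041, 1006 and 690 CPM against 41.9 to 121 (3.70 ± 0.26, adjusted p = 2.16e-08). The groups did not overlap for these or for the other members of the list (38.7% of all genes tested). Calb2, the calcium buffer calretinin, had the largest fold of the list, with 1404, 1333, 1818, 1592 and 1317 CPM against 47.9 to 129 (3.99 ± 0.25, adjusted p = 6.06e-09). Reln, which encodes the secreted protein reelin, had a smaller fold of 2.37 ± 0.23 (adjusted p = 4.4e-07). Summed over the list, the Gad2 IPs held 1814 to 3112 CPM (median 2488) and the vGluT2 IPs 21506, 19421, 20639, 20582 and 15840.

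Purkinje cell genes lay on the Gad2 side, 20 of 21 called higher there, against 27.5% of all genes tested, and 1, Plcb4, not called (median -3.52). For 19 of the 21 the groups did not overlap, against 38.7% of all genes tested. Calb1, the calcium buffer calbindin, was at 77.7, 152, 130, 126 and 102 CPM in the vGluT2 IPs and at 2332, 3303 and 4920 CPM (lowest, median, highest) in the Gad2 IPs, a log2 fold change of -4.85 ± 0.24 (adjusted p = 6.57e-10). Itpr1, the inositol trisphosphate receptor of the endoplasmic reticulum, was at 462, 1076, 538, 1140 and 1220 CPM against 4863, 9291 and 11468 (-3.31 ± 0.29, adjusted p = 2.15e-07). Gng13, a G protein gamma subunit, had the largest fold of the list, -6.29 ± 0.30 (adjusted p = 4.59e-10), from 7.09, 6.61, 15.3, 7.88 and 10.6 CPM to 547, 704 and 1081. Of all genes tested, 8 were called with a log2 fold change of -6 or less, and Gng13 and Pcp2 were among them. Plcb4, a phospholipase C beta of Purkinje cells, was at 186 to 339 CPM in vGluT2 and 191 to 357 in Gad2 IPs (-0.21 ± 0.17, adjusted p = 0.303). The summed level of the list was 2361, 3696, 2623, 3411 and 3242 CPM in vGluT2 and 28381, 35541 and 39017 (lowest, median, highest) in Gad2 IPs. Without vGluT2 replicate 5 the median of the list was -4.39.

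**Figure D2:**
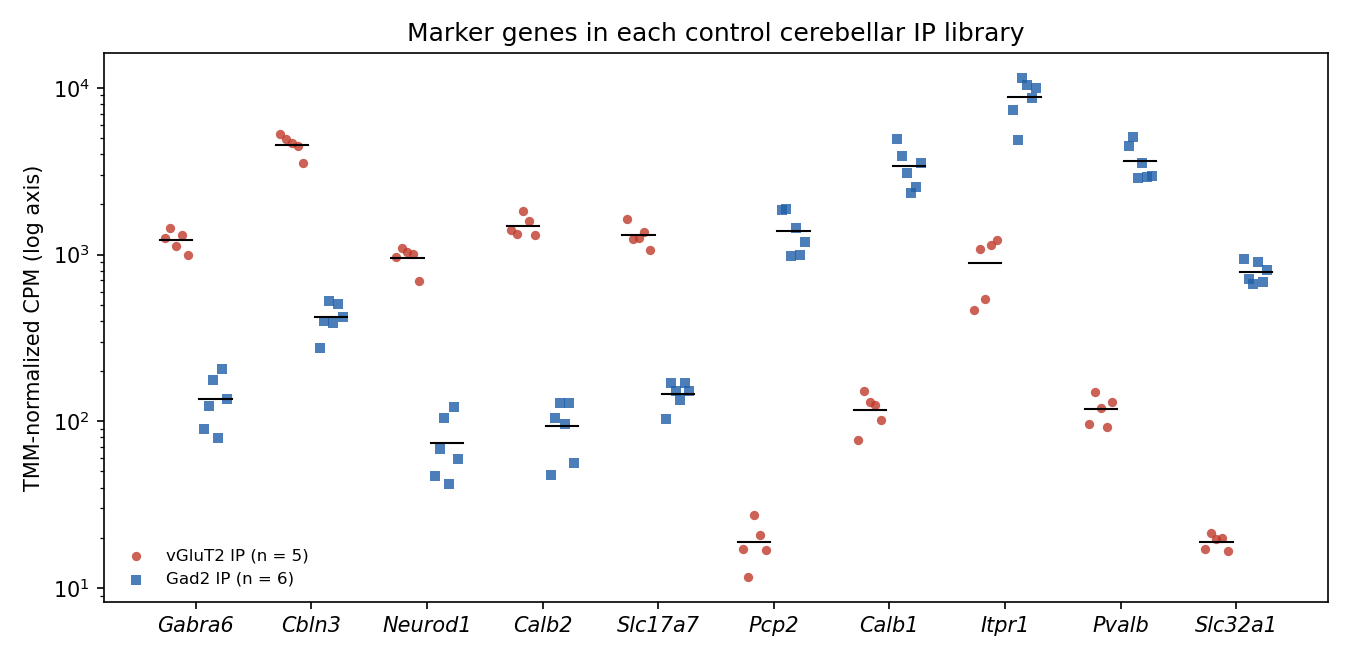
CPM of 10 marker genes in each control cerebellar IP on a log axis, vGluT2 as circles (n = 5) and Gad2 as squares (n = 6), with lines at the group means. Gabra6, Cbln3, Neurod1, Calb2 and Slc17a7 are higher in all vGluT2 IPs, and Pcp2, Calb1, Itpr1, Pvalb and Slc32a1 in all Gad2 IPs.

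Markers of molecular layer interneurons were all higher in the Gad2 IPs, 10 of 10 and each at 2-fold or more (median -3.81), against 27.5% of all genes tested and 15.3% at 2-fold. Pvalb, the calcium buffer parvalbumin of basket, stellate and Purkinje cells, was at 96.6, 149, 121, 92.5 and 131 CPM in vGluT2 IPs and at 2885, 3260 and 5100 in Gad2 IPs (-4.95 ± 0.21, adjusted p = 2.16e-10). Kit, a receptor tyrosine kinase of basket and stellate cells, was at 24.2, 40.6, 20.2, 29.7 and 32.9 CPM against 607, 817 and 882 (-4.74 ± 0.20, adjusted p = 1.86e-10). For all 10 genes of the list the groups did not overlap (38.7% of all genes tested). Of the 5 Golgi cell markers 4 were higher in Gad2 IPs (median -2.43; 27.5% of all genes tested), among them Grm2, a metabotropic glutamate receptor, at -3.56 ± 0.16, and Lgi2, a secreted synaptic protein, at -2.43 ± 0.21. Sst, the somatostatin gene, was not called, at 1.62, 8.77, 3.06, 0.202 and 62.0 CPM in vGluT2 IPs and 3.65 to 10.7 in Gad2 IPs (1.15 ± 0.87, adjusted p = 0.277). Without vGluT2 replicate 5 its log2 fold change was -1.04 (adjusted p = 0.171; range over the alternatives 0.106 to 0.653).

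Unipolar brush cells, excitatory interneurons of the granular layer, gave a divided list, 2 of 5 members higher in vGluT2 and 3 higher in Gad2 IPs (median -1.58), against 28.7% and 27.5% of all genes tested. Eomes and Lmx1a, transcription factors of these cells, were higher in vGluT2, Eomes at 30.9, 17.7, 34.2, 36.1 and 27.6 CPM against 1.16 to 9.12 (2.85 ± 0.38, adjusted p = 1.53e-05) and Lmx1a at a log2 fold change of 2.89 ± 0.56 (adjusted p = 0.000452). The 3 on the other side, Plcb1 among them, reached a log2 fold change of -3.52 and belong to a signalling cascade that Purkinje cells share. The summed level of the 5 members was 220 to 271 CPM in vGluT2 and 771 to 1120 in Gad2 IPs. Which cells the mRNA of those 3 came from was not tested. Of the 5 markers of glutamatergic neurons of the cerebellar nuclei, Slc17a6, Irx3 and Spp1 were higher in vGluT2 and Tbr1 and Lhx9 were not called (median 2.75), against 28.7% of all genes higher in vGluT2. Slc17a6, the gene that holds the vGluT2 driver, was at 21.9, 45.2, 21.3, 23.1 and 106 CPM in vGluT2 IPs and 1.79 to 9.12 in Gad2 IPs (3.36 ± 0.48, adjusted p = 3.2e-05). It was far below Slc17a7, the main vesicular glutamate transporter of granule cells, at 8.08 against 243 CPM per kb of exon in the vGluT2 IPs. Without vGluT2 replicate 5 the log2 fold change of Slc17a6 was 2.69 (adjusted p = 2.58e-05; range over the alternatives 8.66e-09 to 0.000519). Lhx9 was at 1.09, 1.32, 1.22, 1.24 and 24.9 CPM against 1.28 to 2.29 (1.73 ± 0.76, adjusted p = 0.0654), and without vGluT2 replicate 5 at a log2 fold change of -0.59 (adjusted p = 0.127). Without both replicates 5 it was called on the Gad2 side (-0.66, adjusted p = 0.0421). Leaving out any of vGluT2 replicates 1 to 4 instead had it called in vGluT2, at an adjusted p of 0.0372 to 0.0418, the lower end of a range over the alternatives that reached 0.817.

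Summed over the 5 nuclear markers, the vGluT2 IPs ran from 88.0 to 221 CPM, with the highest value in replicate 5, and the Gad2 IPs from 7.16 to 30.3. Total RNA of the mouse of vGluT2 replicate 5 had 33.4 CPM, the lowest of the 4 vGluT2 line total RNA libraries, and that of another mouse of the line 130. The part of the nuclei in the tissue taken from each mouse was not tested.

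**Figure D3:**
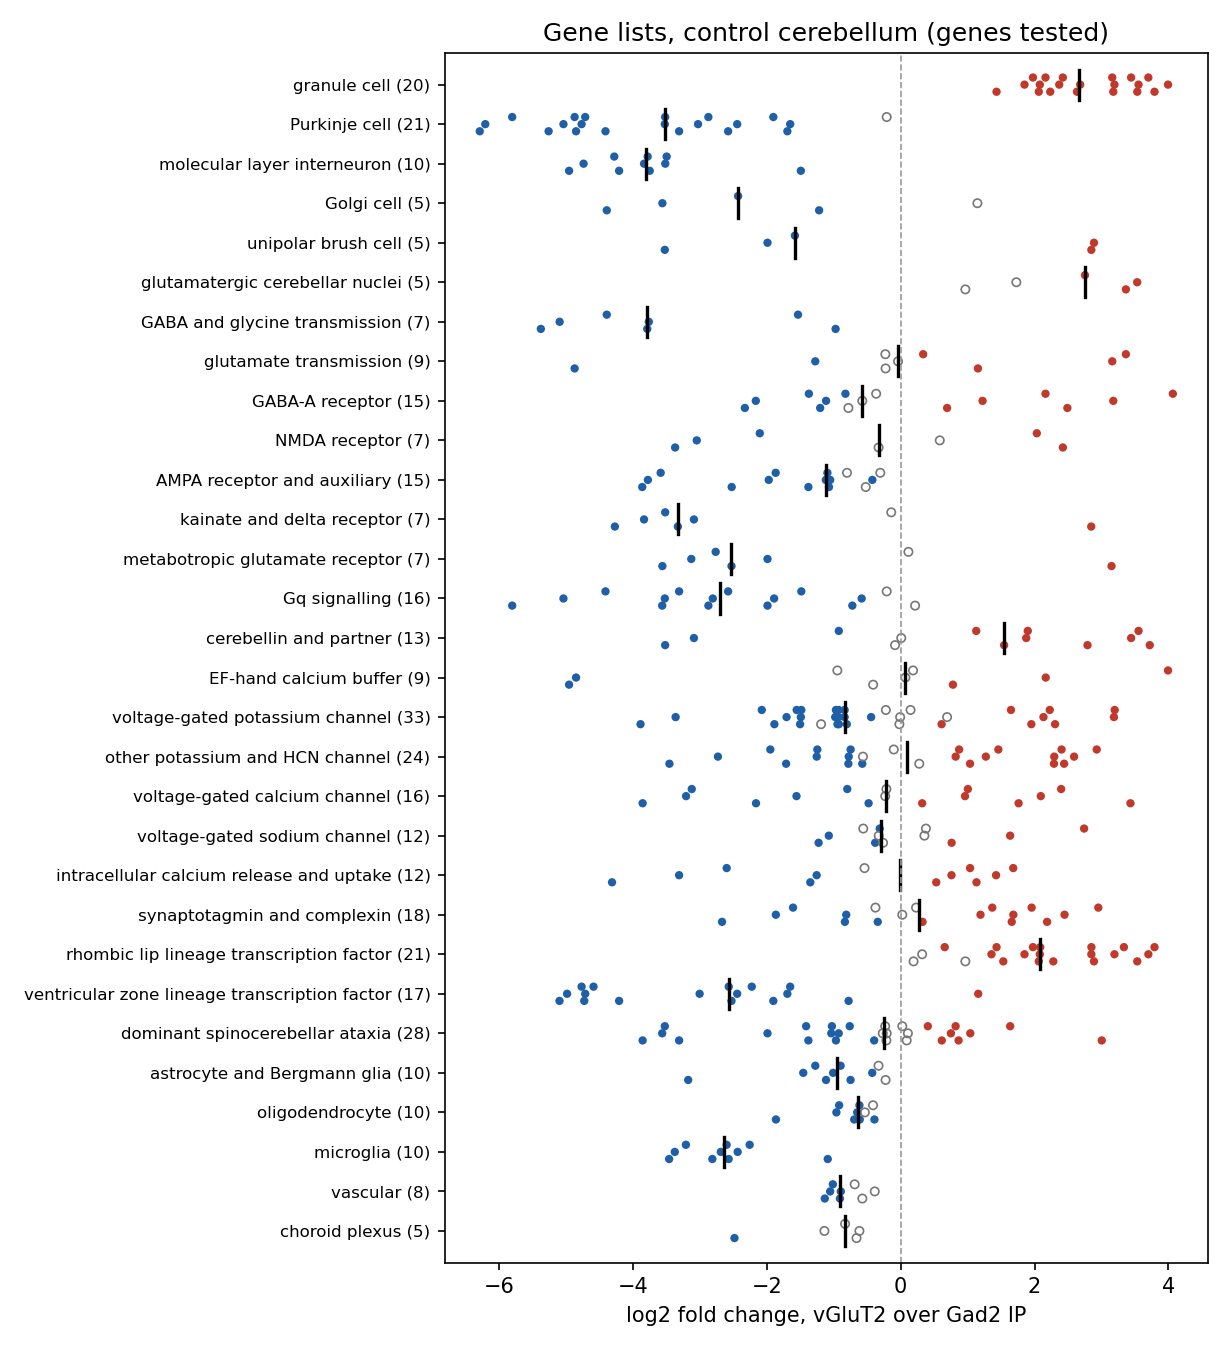
Log2 fold change of each tested member of the 30 gene lists, vGluT2 over Gad2 control IPs (n = 5 and 6), with filled points for genes called, open points for genes not called and a bar at the median of each list. Granule cell and rhombic lip lists lie mostly to the right, and Purkinje cell, interneuron, ventricular zone and microglia lists to the left.

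The genes with the largest folds were chosen among those at 10 CPM or more in the higher group whose groups did not overlap. On the vGluT2 side the 10 were Bcl2l15 (4.16), Nrn1 (4.13), Tmem163 (4.13), Calb2 (3.99), Tlx3 (3.96), Prrt2 (3.87), Defb42 (3.84), Barhl2 (3.79), Mrln (3.76) and Tesc (3.73), with log2 fold changes in parentheses. Prrt2 encodes a presynaptic protein whose human gene is mutated in paroxysmal dyskinesia, and was at 1467, 1231, 1114, 1064 and 872 CPM against 68.2 to 91.7 (adjusted p = 9.56e-11). Nrn1, the membrane-anchored growth factor neuritin, had 224, 204, 151, 184 and 182 CPM against 4.08 to 16.7 (adjusted p = 6.9e-09). Tlx3, Defb42 and Mrln were low on both sides, with vGluT2 means of 22.9, 10.2 and 10.01 CPM and Gad2 means of 1.496, 0.692 and 0.748, and Defb42 was at 0 in 1 Gad2 library. Barhl2 is a homeodomain factor and Tlx3 another, both known from excitatory lineages of the hindbrain.

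The 10 on the Gad2 side were Gng13 (-6.29), Pcp2 (-6.20), Wfdc10 (-6.01), Ppp1r17 (-5.80), Col18a1 (-5.73), Il22 (-5.72), Akr1b7 (-5.58), Smpx (-5.48), Ostn (-5.44) and Slc32a1 (-5.37). Ppp1r17, a phosphatase inhibitor that is a substrate of cGMP-dependent protein kinase in Purkinje cells, rested on 11.9, 18.2, 21.2, 15.1 and 12.3 CPM in vGluT2 IPs and 708, 802 and 1172 in Gad2 IPs (SE 0.22, adjusted p = 1.05e-10). Col18a1, which encodes a basement membrane collagen, was at 6.13, 7.96, 4.90, 7.33 and 5.27 CPM against 228, 291 and 469 (SE 0.25, adjusted p = 2.35e-10). Wfdc10, Akr1b7 and Ostn were low on both sides, with Gad2 means of 17.2, 11.1 and 11.5 CPM and vGluT2 means of 0.266, 0.229 and 0.264. Smpx, with a Gad2 mean of 40.7 CPM, was low in vGluT2 IPs (mean 0.907). Il22 has a near-identical neighbouring copy in the mouse genome, so which copy its counts came from is uncertain.

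By level per kb of exon, the scale on which genes can be set beside each other, the 5 most abundant genes of the Gad2 IPs were Pvalb (3510 CPM per kb), Ckb (1772), Pcp4 (1720), Calm2 (1696) and Atp1b1 (1545). In the vGluT2 IPs they were Calm2 (1929), Ubb (1794), Snap25 (1680), Psap (1477) and Cox8a (1179). Pvalb and Pcp4, a calmodulin-binding peptide, were Gad2-side genes at -4.95 and -5.26. Snap25, a SNARE protein of synaptic vesicle fusion, was higher in vGluT2, at 12389, 11541, 12352, 10982 and 9797 CPM against 1535, 2968 and 3763 (2.0 ± 0.17, adjusted p = 1.51e-07). Calm2, a calmodulin gene, was high on both sides and not called (0.19 ± 0.18, adjusted p = 0.405). Ubb holds ubiquitin repeats found in other genes too, so its level is uncertain, and its call (0.44 ± 0.14, adjusted p = 0.0154) was lost without vGluT2 replicate 3 (0.33, adjusted p = 0.0554; range over the alternatives 0.00621 to 0.0554).

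Genes of GABA and glycine transmission were higher in Gad2 IPs, 7 of 7 (median -3.79), against 27.5% of all genes tested. Slc32a1, the vesicular transporter of GABA and glycine, had the smallest adjusted p of the genes named for this contrast, at 17.1, 21.4, 19.6, 19.9 and 16.7 CPM against 670, 759 and 943 (-5.37 ± 0.15, adjusted p = 1.37e-11). Gad1 and Gad2, which encode the GABA-synthesizing enzymes, were at -3.79 ± 0.19 and -3.76 ± 0.25. Gad2, the driver gene of the line, was at 13.7, 31.7, 12.4, 18.6 and 20.9 CPM in vGluT2 IPs and 185, 271 and 313 in Gad2 IPs, and per kb of exon Gad1 stood above it in the Gad2 IPs, at 249 against 44.9. Slc6a5, the glycine transporter of Golgi cells, was at -4.39 ± 0.35. Abat, which degrades GABA, had a smaller fold, -1.53 ± 0.18 (adjusted p = 3.59e-06).

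For glutamate transmission, 4 of the 9 genes tested were higher in vGluT2, 2 higher in Gad2 and 3 not called (median -0.04, and 0.02 without Gad2 replicate 5, vGluT2 replicate 3 or vGluT2 replicate 4), against 28.7% and 27.5% of all genes tested. Slc17a8 fell below the count limit. Slc17a7 was at 1636, 1244, 1248, 1359 and 1062 CPM against 103, 152 and 170 (3.16 ± 0.15, adjusted p = 4.24e-10). On the Gad2 side was Slc1a6, the glutamate transporter of Purkinje cell spines, at 31.5, 29.6, 43.7, 39.7 and 37.8 CPM against 823, 1037 and 1342 (-4.87 ± 0.17, adjusted p = 6.03e-11). The glial transporter gene Slc1a3 was the other (-1.28 ± 0.26, adjusted p = 0.000629). The genes of vesicle loading in parallel fibres and of uptake by Purkinje cells, Slc17a7 and Slc1a6, were thus on opposite sides. Glul, the glutamine synthetase gene of glia, was at 245 to 466 and 191 to 508 CPM (-0.23 ± 0.22, adjusted p = 0.404).

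Of the 15 GABA-A receptor subunits tested, 6 were higher in vGluT2, 6 higher in Gad2 and 3 not called (median -0.57), against 28.7% and 27.5% of all genes, with Gabre, Gabrp, Gabrr1 and Gabrr3 below the count limit. Gabra6 and Gabrd, the subunits of the extrasynaptic receptors of granule cells, were higher in vGluT2, Gabrd at 498, 343, 432, 443 and 360 CPM against 86.9, 93.5 and 96.2 (2.16 ± 0.11, adjusted p = 9.48e-10). Gabra3 was higher in Gad2 (-2.16 ± 0.35, adjusted p = 0.000103). Calls of 2 low or variable subunits were unsteady. Gabrb2 (0.69 ± 0.24, adjusted p = 0.0227) was not called without vGluT2 replicate 2 (0.52, adjusted p = 0.0786), with HD libraries in the fit, with the replicate number as a block or with Y-linked level as a covariate (range over the alternatives 0.0099 to 0.117). Gabra5, at 1.25, 6.72, 1.03, 0.433 and 7.74 CPM against 0 to 1.29 (2.49 ± 0.77, adjusted p = 0.0124), lost its call with Y-linked level as a covariate (adjusted p = 0.102) or the replicate number as a block (adjusted p = 0.0955), and its lowest adjusted p over the alternatives was 0.00394.

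Of the 7 NMDA receptor subunits, 2 were higher in vGluT2, 3 higher in Gad2 and 2 not called (median -0.33), against 28.7% and 27.5% of all genes tested. The GluN2 subunits, which set the kinetics of the receptor, went to different sides. Grin2c was at 309, 234, 309, 323 and 266 CPM against 43.4, 52.2 and 67.3 (2.42 ± 0.13, adjusted p = 1.24e-09) and Grin2a at 73.4, 104, 92.4, 131 and 104 against 16.2, 22.5 and 35.0 (2.03 ± 0.21, adjusted p = 1.21e-06). Grin2d was at 6.82, 7.06, 5.56, 6.73 and 8.36 CPM against 60.7, 68.6 and 90.8 (-3.37 ± 0.14, adjusted p = 2.16e-10), and Grin2b at -2.10 ± 0.33. The obligatory subunit Grin1 was at 477 to 569 and 498 to 841 CPM and not called (-0.33 ± 0.14, adjusted p = 0.0511). Of the 22 alternatives 11 called Grin1 higher in Gad2, among them DESeq2 (adjusted p = 0.0322) and fits without Gad2 replicate 2, 3 or 5 or vGluT2 replicate 1 (-0.37 to -0.39, adjusted p = 0.0201 to 0.0452), and its adjusted p over the alternatives ran from 0.0193 to 0.105.

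AMPA receptor subunits and their auxiliary proteins were on the Gad2 side, 12 of 15 called there, none in vGluT2 and 3 not called (median -1.12), against 27.5% and 28.7% of all genes tested. Gria3 had the largest fold of the 4 pore subunits, at 18.5, 41.1, 17.3, 29.2 and 38.2 CPM against 254, 365 and 384 (-3.58 ± 0.24, adjusted p = 1.05e-08). Gria1 and Gria2 were at -1.97 ± 0.18 and -1.09 ± 0.15. Gria4 was at 169 to 260 against 234 to 351 CPM (-0.42 ± 0.14, adjusted p = 0.0195), a call lost without vGluT2 replicate 3 (-0.36, adjusted p = 0.0585), without both replicates 5 or with the replicate number as a block (range over the alternatives 0.00629 to 0.0666). Of the auxiliary proteins, Shisa6 was at -3.86 ± 0.28 (adjusted p = 2.54e-08). Cacng2, the gene of stargazin, which granule cells need for surface AMPA receptors, was at 123, 122, 85.5, 98.7 and 105 CPM in vGluT2 IPs and higher in Gad2 IPs, at 322, 379 and 472 (-1.87 ± 0.14, adjusted p = 2.55e-08).

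Kainate and delta receptors gave 1 member higher in vGluT2, 5 higher in Gad2 and 1 not called of 7 (median -3.33), against 28.7% and 27.5% of all genes tested. The vGluT2 member was Grik2, the GluK2 subunit of granule cells, at 107, 141, 98.3, 114 and 88.3 CPM against 8.94, 12.4 and 25.6 (2.85 ± 0.26, adjusted p = 2.49e-07). Grik1 was its opposite, at 2.49, 7.48, 3.06, 3.32 and 4.19 against 71.5, 77.5 and 88.4 (-4.27 ± 0.25, adjusted p = 2.84e-09). Grik5, a subunit that assembles with either, was at 54.6 to 70.3 and 62.8 to 81.0 CPM (-0.14 ± 0.11, adjusted p = 0.276). Metabotropic receptors gave the same counts, 1 in vGluT2, 5 in Gad2 and 1 not called of the 7 tested (median -2.53), with Grm6 below the count limit. The 1 in vGluT2 was Grm4, the presynaptic receptor of parallel fibres, at 1098, 642, 922, 1206 and 794 CPM against 85.0, 102 and 128 (3.15 ± 0.17, adjusted p = 1.16e-09). Grm7, of the same group III, was at -3.13 ± 0.38 (adjusted p = 6.07e-06).

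In Purkinje cells, Gq proteins act through phospholipase C to release calcium by Itpr1. Of the 16 genes listed for this cascade, its regulators and related signalling, 14 were higher in Gad2 IPs, against 27.5% of all genes tested. None was higher in vGluT2, against 28.7%, and 2, Gna11 and Plcb4, were not called (median of the list -2.69). The list counts Ppp1r17, named above as a substrate of cGMP-dependent protein kinase rather than a member of the cascade, which had its largest fold (-5.80). Homer3, a postsynaptic scaffold that binds Itpr1, was at 39.4, 49.5, 36.3, 38.3 and 31.7 CPM against 936, 1204 and 1787 (-5.04 ± 0.21, adjusted p = 1.64e-10). Car8, which also binds Itpr1, was at -4.41 ± 0.21 and Plcb3 at -2.58 ± 0.25. Dgkz, a kinase of diacylglycerol, and Rgs8, a brake on G proteins, were at -1.89 ± 0.13 and -2.87 ± 0.13. Gna11 was at 97.3 to 121 and 83.9 to 107 CPM (0.22 ± 0.10, adjusted p = 0.0784), and was called in vGluT2 without Gad2 replicate 4 (adjusted p = 0.0344) or vGluT2 replicate 2 (adjusted p = 0.0489), in a range over the alternatives up to 0.232.

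Cerebellins are secreted by granule cells and bridge neurexins of their axons to receptors on Purkinje cell spines. Of 13 genes of this group tested, 8 were higher in vGluT2, 3 higher in Gad2 and 2 not called (median 1.55), against 28.7% and 27.5% of all genes tested, with C1ql2 below the count limit. Cbln1, the main bridge of parallel fibre synapses, was at 3331, 2357, 2411, 2192 and 1798 CPM against 146, 217 and 230 (3.55 ± 0.16, adjusted p = 3.4e-10). Nrxn2 was at 1.13 ± 0.10, whereas Nrxn3 was not called, at 305 to 400 and 290 to 450 CPM (-0.08 ± 0.12, adjusted p = 0.583). On the postsynaptic side, Grid1 and Adgrb3 were higher in Gad2 IPs, Grid1 at -3.09 ± 0.22 and Adgrb3, the receptor of C1q-like proteins, at -0.92 ± 0.12 (adjusted p = 1.33e-05).

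Of the 9 EF-hand calcium buffers tested, 3 were higher in vGluT2, 2 higher in Gad2 and 4 not called (median 0.07), shares near the 28.7% and 27.5% of all genes, with S100g below the count limit. Per kb of exon, Calb2 was at 857 CPM in vGluT2 and 53.8 in Gad2 IPs, Calb1 at 24.3 and 699, and Pvalb at 113 and 3510. Necab3 was the third gene higher in vGluT2 beside Calb2 and Calm3, at 2.17 ± 0.16 (adjusted p = 3.28e-08). Calm3, which encodes the same protein as Calm2, was at 0.78 ± 0.14 (adjusted p = 0.000191). For calcium release and uptake, 6 of 12 genes were higher in vGluT2 and 5 in Gad2, against 28.7% and 27.5% of all genes, and 1 was not called (median -0.00, and 0.00 to 0.08 without Gad2 replicate 3, 4, 5 or 6 or vGluT2 replicate 1 or 3). Atp2a3, the SERCA3 pump of Purkinje cells, was at 51.8, 75.6, 35.7, 55.7 and 37.6 CPM against 776, 1019 and 1357 (-4.31 ± 0.23, adjusted p = 1.15e-09), and Atp2a2 at -1.25 ± 0.13. The plasma membrane pumps differed in direction, Atp2b2 at -1.35 ± 0.12 and Atp2b3 at 1.68 ± 0.18 (adjusted p = 2.12e-07 and 1.32e-06). Ryr1, a ryanodine receptor, was at -2.60 ± 0.31 (adjusted p = 4.31e-06).

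Voltage-gated calcium channels split 7 and 7 of 16, with 2 not called (median -0.22), against 28.7% and 27.5% of all genes tested. Low-threshold channels lay on different sides, Cacna1g (Cav3.1) at 75.6, 71.0, 70.9, 64.4 and 65.4 CPM against 775, 979 and 1382 (-3.85 ± 0.16, adjusted p = 1.52e-10), and Cacna1i (Cav3.3) at 149, 134, 200, 194 and 135 against 23.4, 32.0 and 38.1 (2.40 ± 0.17, adjusted p = 1.63e-08). The same held for the alpha2delta subunits. Cacna2d1 was at 3.43 ± 0.36 and Cacna2d2, which Purkinje cells need, at -2.16 ± 0.13 (adjusted p = 1.18e-06 and 5.22e-09). Cacna1a, the P/Q-type pore of both cell types, was at 252 to 399 and 270 to 480 CPM (-0.21 ± 0.15, adjusted p = 0.246).

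Voltage-gated potassium channels and their auxiliary subunits had 8 genes higher in vGluT2, 19 higher in Gad2 and 6 not called of 33 (median -0.84), where 28.7% and 27.5% of all genes tested were called, so that the share on the vGluT2 side was near that of all genes. Kcnc1, a channel gene of fast-spiking neurons, was at 1122, 980, 1222, 1252 and 1064 CPM against 300, 363 and 432 (1.65 ± 0.12, adjusted p = 2.05e-08). Kcnd2, a channel of the A-type current in granule cells, was at 1.95 ± 0.20 (adjusted p = 1.26e-06). Kcna2 and Kcna6 of the Kv1 family were higher in Gad2, at -1.49 ± 0.17 and -3.36 ± 0.19, and so was the auxiliary Kcnip1 (-3.89 ± 0.30, adjusted p = 4.12e-08). The other potassium and HCN channels gave 11, 10 and 3 of the 24 tested (median 0.09, and -0.02 without vGluT2 replicate 1), against the same shares, Kcnmb1 and Kcnt2 being below the count limit. Leak channels of the TASK kind, Kcnk3 and Kcnk9, were higher in vGluT2, Kcnk3 at 257, 196, 238, 269 and 228 CPM against 32.2, 41.7 and 58.1 (2.44 ± 0.15, adjusted p = 3.31e-09) and Kcnk9 at 2.29 ± 0.19. Kcnj6, an inward rectifier gated by G proteins, was at 2.40 ± 0.25. The BK channel gene Kcnma1 was at 32.4, 70.8, 27.8, 39.4 and 40.3 against 374, 471 and 500 (-3.45 ± 0.22, adjusted p = 6.43e-09).

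Of 12 genes of sodium channels and their partners 3 were higher in vGluT2, 4 higher in Gad2 and 5 not called (median -0.29), near the 28.7% and 27.5% of all genes tested. Scn2a (Nav1.2) was at 321, 496, 358, 479 and 343 CPM against 45.8, 55.6 and 78.1 (2.74 ± 0.18, adjusted p = 9.87e-09). Scn4b, which helps the resurgent current of Purkinje cells, was at -1.23 ± 0.19 (adjusted p = 7.46e-05). Scn8a (Nav1.6) was at 194 to 277 and 225 to 408 CPM, with a small difference (-0.38 ± 0.14, adjusted p = 0.0362) whose call was lost without Gad2 replicate 1, 4, 5 or 6 or vGluT2 replicate 1 or 3 (-0.29 to -0.38), without both replicates 5, with no filter or with the replicate number as a block. The adjusted p of Scn8a over the alternatives ran from 0.00692 to 0.101. Scn1a (Nav1.1), at 148 to 252 and 193 to 266 CPM, was not called (-0.33 ± 0.14, adjusted p = 0.0656), but was by DESeq2 (adjusted p = 0.043), without Gad2 replicate 2 (adjusted p = 0.0396) or vGluT2 replicate 2 (adjusted p = 0.00824), in a range over the alternatives up to 0.181. In the release machinery, synaptotagmins, Doc2 proteins and complexins gave 9, 6 and 3 of 18 (median 0.28), against the same shares. Syt1, a calcium sensor of synchronous release, was at 1297, 1307, 1296, 1317 and 1033 against 244, 266 and 317 (2.19 ± 0.11, adjusted p = 7.86e-10), while its relative Syt2 was at 938 to 1237 and 855 to 1047 CPM and not called (0.23 ± 0.10, adjusted p = 0.0647). Syt2 was called without Gad2 replicate 4 (adjusted p = 0.038) or vGluT2 replicate 1 (adjusted p = 0.0258), in a range over the alternatives up to 0.173. Complexins were on different sides, Cplx2 at 2.45 ± 0.20 and Cplx1 at -0.81 ± 0.16 (adjusted p = 1.1e-07 and 0.000647), and Syt7 was at -1.61 ± 0.10.

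Transcription factors of the rhombic lip lineage were higher in vGluT2 IPs in 18 of 21 genes tested, none in Gad2 (median 2.08), against 28.7% and 27.5% of all genes tested, with Atoh1, which acts in granule cell progenitors, below the count limit. Pax6 was at 200, 186, 189, 166 and 156 CPM against 10.8, 16.8 and 36.9 (3.19 ± 0.26, adjusted p = 9.76e-08), Etv1 at 3.53 ± 0.24, Barhl2 at 3.79 ± 0.15, Zic1 at 2.06 ± 0.19 and Nfia at 1.98 ± 0.17. Mef2a was not called, at 182 to 229 and 130 to 204 CPM (0.19 ± 0.12, adjusted p = 0.192). Factors of the ventricular zone lineage were higher in Gad2 in 16 of the 17 tested and higher in vGluT2 in 1 (median -2.57), against 27.5% and 28.7% of all genes, with the progenitor factors Ptf1a and Prdm13 below the count limit. Skor1 was at 2.47, 3.47, 2.56, 3.09 and 2.42 CPM against 70.1, 90.1 and 111 (-4.98 ± 0.17, adjusted p = 6.03e-11). Tfap2a, at 0.876, 3.33, 1.25, 1.41 and 1.02 against 40.2, 53.0 and 72.9, was at -5.10 ± 0.32 (adjusted p = 6.43e-09) and Pax2, a factor of interneuron precursors, at -4.73 ± 0.27. Lhx5 and Lhx1, LIM factors of Purkinje cells, were at -4.71 ± 0.21 and -1.65 ± 0.12, and Rora, the nuclear receptor of the staggerer mutation, at -1.69 ± 0.19. The groups did not overlap for 18 of the 21 genes of the first list and 16 of the 17 of the second, against 38.7% of all genes tested.

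Promoter sequences were read for 4 short motifs that factors of these lists are known to bind, on both strands: CAGATG (the E-box of NEUROD and ATOH1), TTGGCA (a half-site of NFI), AGGTCA (a half-site of ROR and other nuclear receptors) and GCCNNNGGC (a palindrome of AP-2, the family of Tfap2a), whose matches can share end bases. RefSeq promoters, 250 bases before to 50 after the start on GRCm38.p6, were found for 10810 of the 13879 genes tested. The shares of promoters with a motif were taken over 3 sets, namely all genes tested, the 1058 genes with a promoter among those 2-fold or more higher in vGluT2, and the 1616 among those higher in Gad2. CAGATG was in 11.5%, 12.9% and 14.1%, TTGGCA in 11.3%, 13.4% and 11.1%, AGGTCA in 12%, 10.5% and 12.6%, and GCCNNNGGC in 25.3%, 28% and 26.2%. Over all 27025 promoters of the table the shares were 17.2%, 14.4%, 16% and 16.5%. In the same order of motifs, 2, 3, 4 and 2 of 12 Purkinje cell genes with a promoter and 2, 3, 2 and 5 of 16 granule cell genes held a match, and a difference between these lists was not tested. The promoters of 5 of these genes are printed, picked for holding a match, so that the motifs can be seen beside the levels: Gabra6 (chr11:42321023-42321322, minus strand) and Cbln3 (chr14:55884207-55884506, minus) from the vGluT2 side, and Pcp2 (chr8:3625498-3625797, minus), Pcp4 (chr16:96467356-96467655, plus) and Homer3 (chr8:70282749-70283048, plus) from the Gad2 side. These picks show TTGGCA only on the vGluT2 side and AGGTCA only on the Gad2 side. In the lists, however, 3 of 12 Purkinje cell genes held TTGGCA and 2 of 16 granule cell genes AGGTCA. Capitals mark a match on either strand, TGCCAA being TTGGCA and TGACCT being AGGTCA read on the other strand. A match is a description of letters, not a bound site.
Gabra6: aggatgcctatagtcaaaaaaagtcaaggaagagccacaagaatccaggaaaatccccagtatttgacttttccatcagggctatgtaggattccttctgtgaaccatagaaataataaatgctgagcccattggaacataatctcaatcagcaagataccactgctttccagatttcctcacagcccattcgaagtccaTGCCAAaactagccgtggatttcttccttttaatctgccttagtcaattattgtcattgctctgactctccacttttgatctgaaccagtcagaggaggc
Cbln3: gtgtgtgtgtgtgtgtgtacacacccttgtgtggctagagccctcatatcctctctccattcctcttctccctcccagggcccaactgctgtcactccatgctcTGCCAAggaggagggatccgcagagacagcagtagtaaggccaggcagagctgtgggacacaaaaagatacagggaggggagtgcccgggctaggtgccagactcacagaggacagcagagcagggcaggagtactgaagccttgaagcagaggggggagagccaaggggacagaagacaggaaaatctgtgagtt
Pcp2: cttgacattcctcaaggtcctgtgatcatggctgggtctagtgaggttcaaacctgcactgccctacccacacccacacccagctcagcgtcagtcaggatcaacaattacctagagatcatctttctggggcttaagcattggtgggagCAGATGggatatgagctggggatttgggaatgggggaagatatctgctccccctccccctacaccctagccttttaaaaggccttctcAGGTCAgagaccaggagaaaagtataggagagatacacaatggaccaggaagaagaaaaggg
Pcp4: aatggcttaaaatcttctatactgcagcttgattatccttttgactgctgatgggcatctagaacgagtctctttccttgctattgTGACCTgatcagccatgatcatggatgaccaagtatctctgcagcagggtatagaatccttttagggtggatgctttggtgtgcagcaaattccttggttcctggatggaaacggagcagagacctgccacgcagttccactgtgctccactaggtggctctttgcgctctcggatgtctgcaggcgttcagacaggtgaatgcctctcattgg
Homer3: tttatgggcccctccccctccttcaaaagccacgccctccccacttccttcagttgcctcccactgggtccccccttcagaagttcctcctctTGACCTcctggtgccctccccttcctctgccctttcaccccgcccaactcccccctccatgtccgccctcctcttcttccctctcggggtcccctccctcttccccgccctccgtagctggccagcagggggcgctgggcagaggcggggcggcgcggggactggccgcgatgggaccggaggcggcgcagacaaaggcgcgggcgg

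Of 30 genes of dominant spinocerebellar ataxia, most of which lead to loss of Purkinje cells when mutated in people, 28 were tested and Atxn8os and Tgm6 were below the count limit. They gave 8 higher in vGluT2, 13 higher in Gad2 and 7 not called (median -0.25), against 28.7% and 27.5% of all genes tested. Cacna1g and Itpr1, given above, were among the 13. On the vGluT2 side, Atxn1 was at 59.7, 75.0, 66.6, 76.9 and 55.7 CPM against 31.6, 45.9 and 50.4 (0.61 ± 0.14, adjusted p = 0.0015). Tbp, the general transcription factor, was at 0.87 ± 0.14 (adjusted p = 7.16e-05).

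Of the cells that neither driver targets, markers of astrocytes, oligodendrocytes and vessels summed to less in each IP than in total RNA. Astrocyte and Bergmann glia genes were higher in Gad2 in 8 of 10 (27.5% of all genes tested) and not called in 2 (median -0.95), with summed CPM of 383, 740, 529, 511 and 422 in vGluT2 IPs, 676, 1153 and 1442 (lowest, median, highest) in Gad2 IPs and 4891 to 5681 in the 7 total RNA libraries. Apoe was the most abundant of them per kb of exon, at 45.5 CPM in vGluT2 and 125 in Gad2 IPs (-1.45 ± 0.27, adjusted p = 0.000336). Hopx, a homeodomain protein of Bergmann glia, had a larger fold, at 13.2, 15.7, 15.8, 11.2 and 11.5 CPM against 101, 114 and 158 (-3.17 ± 0.16, adjusted p = 6.92e-10). Oligodendrocyte genes were higher in Gad2 in 8 of 10 (against the same 27.5%) and not called in 2 (median -0.63), summing to 623, 1064, 674, 726 and 823 CPM against 780, 1203 and 1587, and to 4370 to 6209 in total RNA. The call of Mbp (-0.39 ± 0.14, adjusted p = 0.0305), a myelin gene, was lost without Gad2 replicate 5 or without vGluT2 replicate 1, 3 or 4 (-0.33 to -0.36), without both replicates 5 or with Y-linked level as a covariate (range of adjusted p over the alternatives 0.00472 to 0.0786).

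Microglia genes were higher in Gad2 IPs in 10 of 10 (median -2.64), against 27.5% of all genes tested. They summed to 31.3, 48.9, 32.1, 32.1 and 40.5 CPM in vGluT2 and 85.2, 119 and 182 in Gad2 IPs, and to 149 to 194 in total RNA. Csf1r, the growth factor receptor of microglia, was at 2.73, 4.15, 2.75, 3.0 and 3.34 CPM against 8.86, 20.8 and 30.8 (-2.69 ± 0.29, adjusted p = 1.92e-06). Aif1 was at 0 in 1 vGluT2 library and Trem2 at 0 in 1 Gad2 library. Vascular genes were higher in Gad2 in 5 of 8 (27.5% of all genes) and not called in 3 (median -0.90), with sums of 11.9, 23.1, 21.4, 25.1 and 17.2 CPM against 23.9, 37.9 and 47.5, 144 to 226 in total RNA, and Cldn5 the most abundant per kb at 1.35 and 2.81 CPM. Choroid plexus genes varied from library to library, summing to 119, 281, 189, 146 and 21.4 CPM in vGluT2, 18.4, 222 and 570 in Gad2 IPs and 45.8 to 4823 in total RNA, and 1 of 5, Clic6, was called higher in Gad2 (median -0.83), near the 27.5% of all genes. Ttr was their most abundant gene per kb, at 115 and 176 CPM (-0.62 ± 0.96, adjusted p = 0.607). With Y-linked level as a covariate, the median of the list and the fold of Ttr turned to the vGluT2 side. None of the vascular or choroid plexus members was at 0 in any of the 11 libraries. The part of these cells in the differences between the neurons was not tested.

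Total RNA of cerebellar homogenate, also of 1 hemisphere, gave a reference for each IP. That of 7 control mice, 4 of the vGluT2 line and 3 of the Gad2 line, was set against both IPs in 1 fit of 14267 genes, so that the contrasts share their total RNA libraries. This fit had no block for the mouse, though 6 mice gave both an IP and total RNA. The values of genes and lists over total RNA come from it. In vGluT2 IPs 4083 genes were higher than in total RNA (28.6%) and 4105 lower (28.8%), and in Gad2 IPs 4259 higher (29.9%) and 4222 lower (29.6%). With only the 6 mice that gave both an IP and total RNA, and the mouse as a block, 2517 genes were higher and 3208 lower in vGluT2 IPs and 3013 and 3185 in Gad2 IPs. Granule cell genes were enriched in vGluT2 IPs in 19 of 20 (median 1.08, against 0.05 over all genes) and lower than total RNA in Gad2 IPs in 20 of 20 (median -1.80, against 0.02). Purkinje cell genes were higher in Gad2 IPs in 21 of 21 (median 1.71) and in vGluT2 IPs lower in 19 of 21 and higher in 1, Plcb4 (0.41, adjusted p = 0.0416; median of the list -2.07). Gabra6 was at 1.30 in vGluT2 and -1.87 in Gad2 IPs over total RNA, and Pcp2 at -4.52 and 1.71 (adjusted p = 1.3e-05, 1.3e-07, 3.2e-11 and 1e-06). In vGluT2 IPs the median gain of granule cell genes was thus smaller than the median loss of Purkinje cell genes. Molecular layer interneuron genes stood at medians of -2.16 in vGluT2 and 1.81 in Gad2 IPs.

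**Figure D4:**
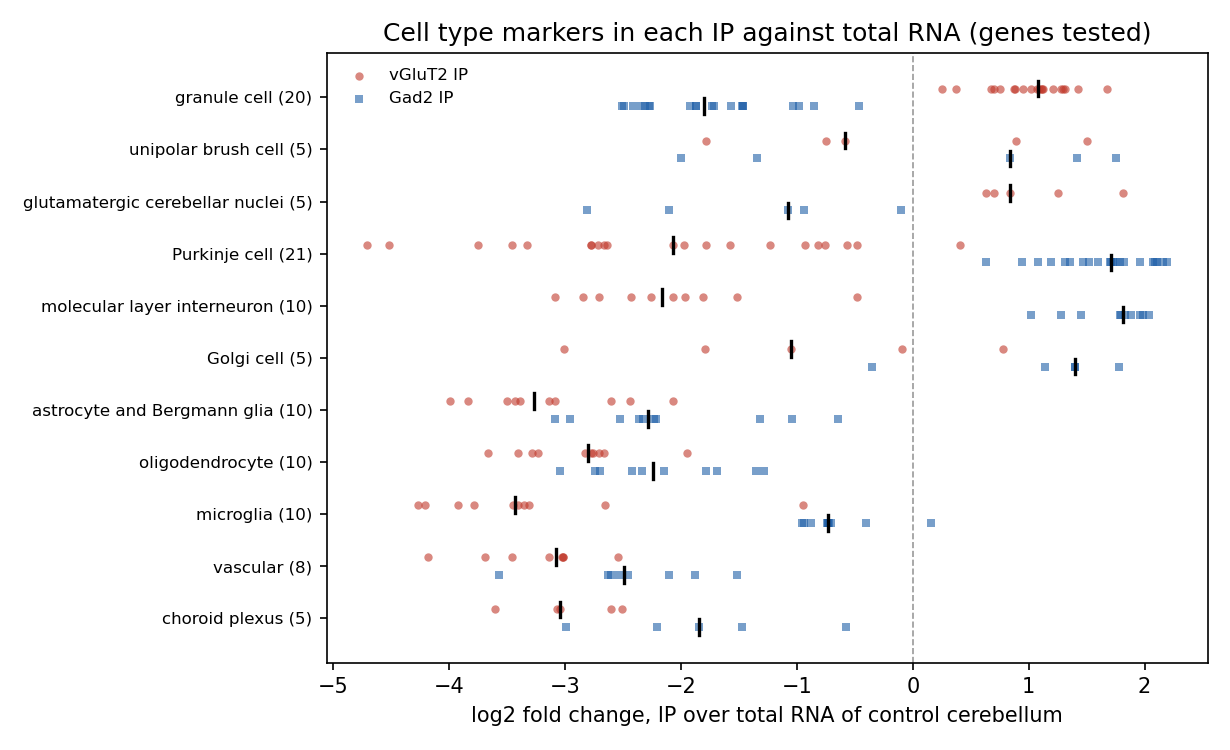
Log2 fold change of each tested gene of the cell type lists in IP over total RNA of control cerebellum (7 libraries), for vGluT2 (n = 5) and Gad2 (n = 6) IPs, with a bar at the median of each list. Granule cell genes lie above 0 in vGluT2 and below 0 in Gad2 IPs, most Purkinje cell genes the reverse, and astrocyte, oligodendrocyte and vascular genes below 0 in both.

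Each astrocyte, oligodendrocyte and vascular gene of the lists was lower in both IPs than in total RNA. The medians in vGluT2 and Gad2 IPs were -3.27 and -2.28 for astrocytes and Bergmann glia, -2.80 and -2.24 for oligodendrocytes, -3.08 and -2.50 for vascular cells, and -3.04 and -1.85 for the choroid plexus. Microglia genes were lower in vGluT2 IPs in 10 of 10 (median -3.43; 28.8% of all genes) but in Gad2 IPs in 6 of 10 (median -0.73; 29.6% of all genes), less far below total RNA than the other 4 lists. Slc17a6 was at 1.25 in vGluT2 IPs over total RNA and not called (adjusted p = 0.064). Snap25, a gene of all neurons, was at 1.62 in vGluT2 IPs and not called in Gad2 IPs (-0.36, adjusted p = 0.073).

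Total RNA of the 2 lines, which bears on the lines rather than on tagged cells, was compared between 4 vGluT2 line libraries (35858945 to 46263019 counts) and 3 Gad2 line libraries (30447351 to 32070257). edgeR called 0 of 14541 genes (0%), with 1089 at an unadjusted p under 0.05, and DESeq2 called 2 higher in the vGluT2 line, Clk1 and Tagap, and 1 higher in the Gad2 line, Myo7a, named after their values were seen. The count rested on 1 library: without Gad2 total RNA replicate 2, from the mouse of Gad2 IP replicate 5, edgeR called 965 and 143 genes. Gabra6 was at 579 CPM in the vGluT2 line and 501 in the Gad2 line (0.21, adjusted p = 0.641), and Pcp2 at 419 and 548 (-0.38, adjusted p = 0.527). Without that library 33 of the 338 list members tested were called (9.76%, against 7.6% of all genes), all higher in the vGluT2 line, with Scn2a at the smallest adjusted p (0.96, adjusted p = 0.0241). Among them, Gabrb2 (1.35, adjusted p = 0.0259) had a larger fold than between the IPs. Cacna2d1 of the vGluT2 side (1.43, adjusted p = 0.0475) and Gria3 of the Gad2 side (1.12, adjusted p = 0.0255) were called too. The 33 held no granule cell gene and 2 Purkinje cell genes, Plcb4 and Rora, and Gabra6 (0.46, adjusted p = 0.153) and Pcp2 (-0.61, adjusted p = 0.0528) were not called.

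The same contrast in HD mice, in other animals and libraries, gave 3961 genes higher in vGluT2 (28.2%) and 4116 higher in Gad2 (29.3%) of 14030, from 6 vGluT2 and 6 Gad2 IPs of 30077307 to 44073936 and 26873270 to 93692505 counts. Of 7764 genes called in controls and also tested in HD mice, 6451 were called with the same sign, which is 83.1% of them and 80.7% of the 7990 HD calls also tested in controls, and 4 were called with the opposite sign. Gabra6 was at 2.66 ± 0.25 in HD and 3.18 ± 0.23 in control mice, and Pcp2 at -5.81 ± 0.45 and -6.20 ± 0.28. List medians in HD mice were 2.65 for granule cells, -4.21 for Purkinje cells, -4.20 for molecular layer interneurons, 1.65 for rhombic lip factors, -3.30 for ventricular zone factors and -2.18 for microglia. Counts or medians of other lists differed in value from those of controls, and not all of them are given here. In HD mice 5 of 13 cerebellin genes were higher in vGluT2 and 3 in Gad2 (median 0.90, 1.55 in controls). Of 15 GABA-A receptor subunits 3 and 7 were called (-1.04 and -0.57), against 28.2% and 29.3% of all genes tested in HD mice. Against the same shares, 5 and 19 of 32 voltage-gated potassium channel genes were called (8 and 19 of 33 in controls). Sodium channel genes gave 2 and 6 of 12 (3 and 4 in controls). All 15 AMPA receptor genes were higher in Gad2 (12 of 15 in controls). Medians of the choroid plexus were -0.06 and -0.83, of cerebellar nuclei 1.94 and 2.75, of calcium release -0.24 and -0.00, and of EF-hand buffers -0.02 and 0.07. Whether any list differed between HD and control mice was not tested. A test of the difference between the contrasts called 15 of 13971 genes (0.107%), with 980 at an unadjusted p under 0.05. Neither marker passed it, Gabra6 at -0.52 (adjusted p = 0.795) and Pcp2 at 0.40 (adjusted p = 0.885), nor did any member of the 30 lists.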

How the data were processed

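Sequencing libraries of RiboTag IPs and total RNA were aligned and quantified by the authors with STAR and Salmon (nf-core/rnaseq, GRCm38.p6, spike-in and HA tag sequences added), and the deposited values are estimated counts per gene, 8.57% of them more than 1e-06 away from a whole number. They were rounded here, and the 92 spike-ins were left out. Gene types, positions and exon lengths came from GENCODE M21 by identifier, which matched 55141 of 55401 mouse genes. Reads were not reprocessed.

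Genes coding for protein whose counts averaged more than 10 over the compared libraries entered edgeR 4.0.16 (in R 4.3.3) with TMM scaling and its quasi-likelihood test. A gene was called at a Benjamini-Hochberg adjusted p of at most 0.05. A 2-fold call adds an absolute log2 fold change of 1 or more. Each SE was derived from the F statistic, as log2 fold change over its root. CPM per kb divides by the exon length of the gene. DESeq2 1.42.0 was the other tool. Promoters came from RefSeq. Tables were made in Python 3.11.15 with pandas 2.3.3 and plots with matplotlib 3.10.9.

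Genes named are Gabra6, Pcp2, members of 30 lists, the 10 largest folds in each direction (10 CPM or more, groups not overlapping) and the 5 highest per kb. The members and lists were chosen with earlier results of these data known. Some list members are not reported here by name, and counts, medians and sums of lists include them. The totals per library, 28961145 to 40661342, limit how precisely weakly expressed genes were measured.

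Alternatives were DESeq2, its size factors or library size alone in edgeR, no filter, filterByExpr, all gene types, a test against a 2-fold change, the replicate number as a block, all cerebellar IPs in 1 fit, and each library left out in turn. A covariate for Y-linked level, both replicates 5 left out, the mouse as a block, and HD vGluT2 replicate 6 left out were alternatives chosen after seeing the data.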

Additional observations from a re-analysis of the deposited data

Results flagged for a closer look

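Of 356 groups of values looked at, 26 had a library far from the others of its group, where about 1 in 20 groups would by chance. Among vGluT2 IPs, replicate 2 was high for several genes of the Gad2 side: Car8 278 CPM (median of the other 4, 150), Rora 209 (132), Tfap2b 20.96 (8.48), Grik3 41.9 (20.7), Slc6a5 8.43 (2.36), Shisa6 65.7 (25.6) and Tfap2a 3.33 (1.14). The summed level of ventricular zone factors in that library was 553 CPM (385 in the others). Spp1, listed for glutamatergic neurons of the cerebellar nuclei, was high in it too, at 111 CPM (55.97). So were genes of other cells, Mbp at 403 (277) and Clic6 at 6.16 (2.14). The cause was not tested.

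In vGluT2 replicate 5, Sst was at 62.0 CPM (2.34 in the others), Slc17a6 at 106 (22.5) and Lhx9 at 24.9 (1.23), and Syt1 was low at 1033 (1302). Single high values were Reln at 629 CPM in vGluT2 replicate 4 (412), Tbr1 at 1.15 in replicate 3 (0.483), Ubb at 3878 in replicate 3 (2785), Tesc at 207 in replicate 1 (115) and Cox8a at 1221 in replicate 1 (587).

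Among Gad2 IPs, replicate 5 had 77.4% of counts on protein-coding genes (97.5% in the others) and 15289 genes detected (20400). Low values were Cbln1 at 146 CPM in replicate 1 (221), Gabrb2 at 31.0 in replicate 2 (82.1) and Kcnma1 at 374 in replicate 2 (479), and the GABA-A receptor subunits summed to 2337 CPM in replicate 4 (3881).

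The contrast of cell types differed between HD and control mice for 15 genes, of which the 5 with the smallest adjusted p are given. Rasa4, a Ras GTPase activating protein, was at -1.40 in control and 0.01 in HD mice, a difference of 1.40 (adjusted p = 0.00105). The other 4 share an adjusted p of 0.00129. Igfbp5, an IGF binding protein, was at 2.03 and 0.86, a difference of -1.18, Clstn2, a calsyntenin, at -0.72 and -2.01 (-1.29), Armh4 at -0.45 and -1.46 (-1.01), and Stum at -1.27 and -3.10 (-1.83).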

How the results depend on the processing

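Across 22 alternatives for the control contrast, 3113 of 3189 results for 145 named genes kept their direction and their side of the threshold, 48 lost the call (23 genes, 17 of them only in the test against a 2-fold change), 22 gained one (5 genes) and 6 reversed (3 genes). The number of genes called higher ranged from 3630 to 4150 in vGluT2 and from 3451 to 3989 in Gad2 with 1 library left out. The test against a 2-fold change left 766 and 1370 genes, since it is stricter by construction. A covariate for Y-linked level, which is unbalanced between the groups, gave 3609 and 3461. With the replicate number as a block the counts were 3757 and 3564, but the numbers do not pair mice: correlations across genes of libraries of the same number, each less its group mean, were 0.194, 0.0398, 0.0120, 0.183 and -0.025. In total RNA of the lines DESeq2 called 2 and 1 genes, and edgeR with 1 library left out 0 to 965 and 0 to 143. With the mouse as a block, in fewer libraries, 2517 genes were higher in vGluT2 IPs than in total RNA. In HD mice the counts were 3721 and 3882 without the re-sequenced library and 3926 and 4066 without vGluT2 replicate 6.

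Reversals touched genes not called and 4 list medians. Sst was at -0.67 with the replicate block, -1.04 (without vGluT2 replicate 5) to 1.47 with 1 library left out and -0.96 without both replicates 5. Lhx9 was at -0.59 (without vGluT2 replicate 5, adjusted p = 0.127) to 1.998 with 1 library left out and -0.66 without both replicates 5 (adjusted p = 0.0421), and Ttr at 0.91 with the Y-linked covariate. List medians turned for glutamate transmission (-0.12 to 0.019 with 1 library left out), other potassium and HCN channels (-0.020 to 0.15), calcium release (-0.11 to 0.075, 0.011 with no filter and 0.073 with the replicate block) and the choroid plexus (0.73 with the Y-linked covariate). The Purkinje cell median was -4.39 without vGluT2 replicate 5. The cause of these changes was not tested. Depth limits genes near 10 counts.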
